A study of Mus musculus with 31 samples.

Results

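Transcripts of the MHC class II antigen presentation machinery were followed in the left hippocampus of mice with a CD8+ T cell attack on neurons. The genes were chosen by name and are the class II transactivator Ciita, the peptide-binding chains H2-Aa, H2-Ab1 and H2-Eb1, the invariant chain Cd74 and the peptide-exchange chains H2-DMa and H2-DMb1. All 7 were found in the deposited table, among 15648 genes. Bulk RNA-seq was done on 31 adult OT-I/Rag1-/- mice, 1 library per mouse. Every mouse carried the OT-I T cell receptor, which recognises an ovalbumin (OVA) peptide on the class I molecule H-2Kb, and lacked Rag1, so that mature B cells and T cells with other receptors do not form. The rAAV-OVA mice had received rAAV-hSyn-OVA-mCherry and the rAAV-control mice rAAV-hSyn-mCherry, injected into the dorsal CA1 region on both sides, and hSyn is a promoter that restricts expression to neurons. Tissue was taken 2, 5, 8 and 28 days (d) later from 4 mice per vector, except that 3 rAAV-control mice were studied at 8 d. By the labels, batch 1 comprises 23 mice and batch 2 the other 8, which are 2 mice of each vector at 2 d and at 28 d.

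MHC class II molecules are pairs of an alpha and a beta chain that carry peptides from the endosomal route to the cell surface, where CD4+ T cells read them. The invariant chain CD74 fills the groove of a new molecule and takes it to the endosome, cathepsins cut it down to a short stub, and the H2-DM pair exchanges that stub for a peptide. Transcription of the family is switched by CIITA, a coactivator that binds no DNA itself but docks on a complex of RFX, CREB and NF-Y factors sitting on the X and Y boxes of the promoters. In brain, class II is low in resting tissue and is known as a mark of activated microglia and of myeloid cells that enter from blood.

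On the GRCm38 build (GENCODE M21), Ciita lies on chromosome 16 (chr16:10480059-10528418, plus strand). Of the others, 5 lie within the MHC on chromosome 17, in the order H2-DMa (chr17:34119541-34139101), H2-DMb1 (chr17:34153072-34160230), H2-Ab1 (chr17:34257689-34269419), H2-Aa (chr17:34282744-34287823, minus strand) and H2-Eb1 (chr17:34305867-34316674).

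RefSeq promoter windows of 300 bases, 250 before and 50 after the transcription start on GRCm38.p6, were matched by symbol for 4 of the 7 genes, namely H2-Aa, H2-Eb1, H2-DMa and H2-DMb1. The stretches that carry the X box letters CTNGNAAC and, further down, the Y box letters TGATTGG are shown because these are the letters on which the class II transcription complex sits, and both matches stand in capitals. Each runs 5′ to 3′ on the strand of its gene. H2-Ob, a chain of the H2-O pair described further on, is added for comparison.
H2-Aa: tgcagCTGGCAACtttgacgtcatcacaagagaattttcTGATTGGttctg
H2-Eb1: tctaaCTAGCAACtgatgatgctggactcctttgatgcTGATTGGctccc
H2-DMb1: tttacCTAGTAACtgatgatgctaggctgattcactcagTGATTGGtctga
H2-Ob: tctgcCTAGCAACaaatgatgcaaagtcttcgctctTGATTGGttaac

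These stretches are chr17:34287862-34287912 for H2-Aa, chr17:34305768-34305817 for H2-Eb1, chr17:34153089-34153139 for H2-DMb1 and chr17:34238810-34238857 for H2-Ob. The X letters began 84 bases before the RefSeq start of H2-Aa, and 94, 97 and 90 bases before the RefSeq starts of H2-Eb1, H2-DMb1 and H2-Ob. The stretch of H2-DMb1 lies inside its GENCODE M21 span given above, so the annotations place that start differently. On either strand, CTNGNAAC was found in 13.2% and TGATTGG in 7.82% of 32851 windows, and the matches do not overlap in the stretches shown. The first was followed by the second at a spacing of 25 to 45 bases, on the strand of the gene, in 11 windows (0.0335%), and 4 of the 11 were these class II genes. The letters and the spacing were chosen after these promoters had been read, so the share is a description. In both windows of H2-DMa (chr17:34122582-34122881 and chr17:34125268-34125567) neither set of letters was found, on either strand. These windows lie inside the GENCODE M21 span of H2-DMa given above and do not cover its start. The windows of H2-DMb2 and H2-Oa held the Y letters alone, and that of H2-Eb2 held both but not in this order. H2-DMa, H2-DMb2 and H2-Oa were increased as well, as given further on.

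The libraries held 19046977 to 57407902 counts (median 27024978), and levels are given as CPM, counts relative to the library size after TMM scaling in edgeR. The 7 genes together took 0.00202% of counts in the lowest rAAV-control mouse and 0.835% in the highest rAAV-OVA mouse. A pair of mice stood apart from their groups in all 7 genes. Mouse D720, an rAAV-control mouse at 8 d, was far above the other 2 of its group, and mouse D844, an rAAV-OVA mouse at 28 d, far below the other 3 of its group. Both are kept below, and the main results that rest on them are also given without them. Because whole tissue was sequenced, more class II-bearing cells and more class II RNA per cell cannot be told apart.

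**Figure D1:**
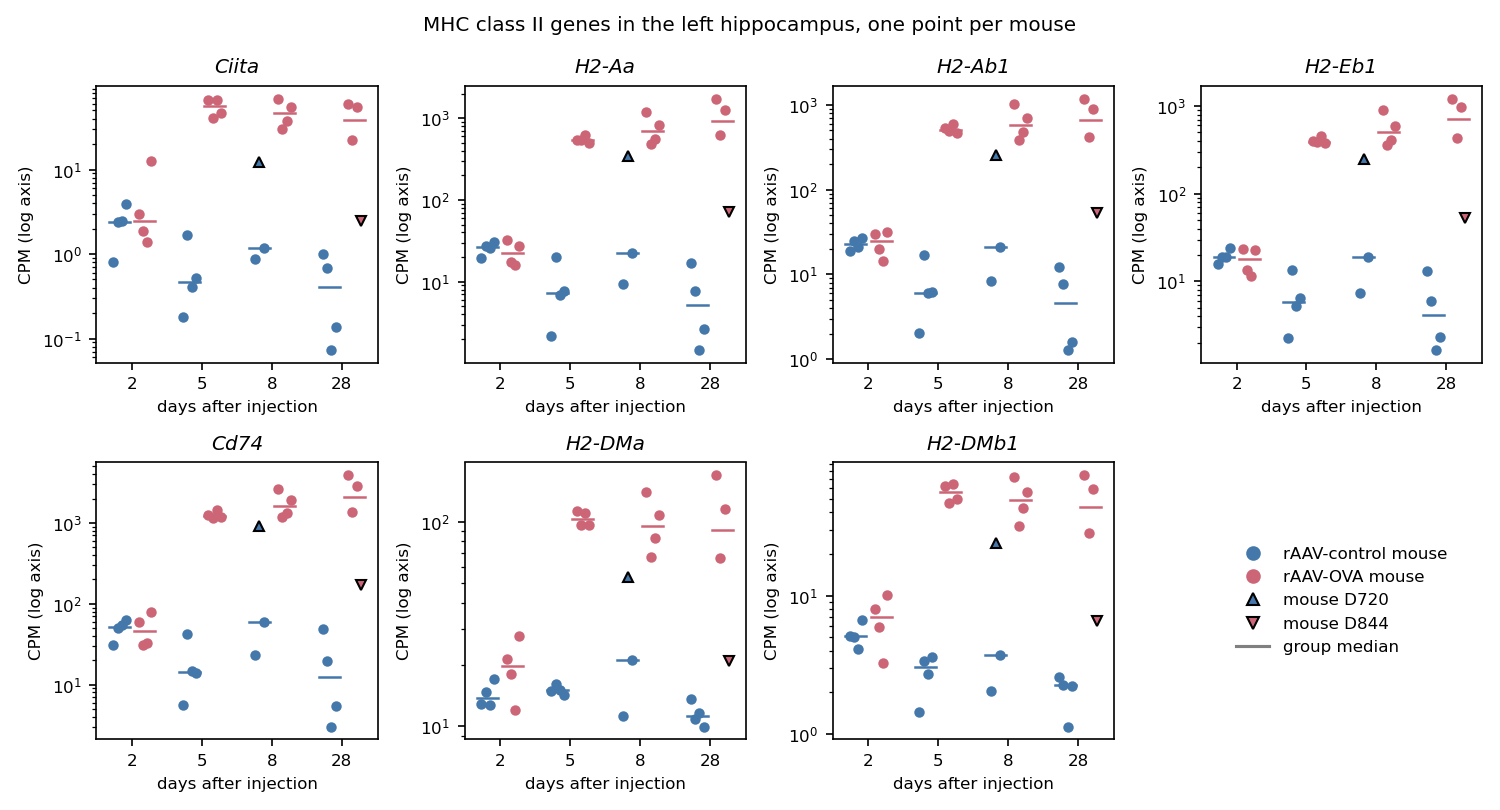
CPM of the 7 class II genes in each mouse (vertical, log axis) against days after injection (horizontal), with rAAV-control mice in blue, rAAV-OVA mice in red, group medians as lines, and mice D720 and D844 as black-edged triangles. From 5 d on every rAAV-OVA mouse lies above every rAAV-control mouse of the same day in each panel, and at 2 d the groups overlap.

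The vectors were compared at each day to see when the class II genes rise once neurons make OVA. At 2 d they had not separated. H2-Aa stood at 32.1, 17.3, 16.02 and 27.1 CPM in the rAAV-OVA mice and at 19.3, 27.7, 26.04 and 30.2 CPM in the rAAV-control mice. The groups overlapped, as they did for the other 6 genes. Ciita stood at 2.998, 1.89, 1.40 and 12.6 CPM with rAAV-OVA and at 0.797, 2.42, 2.43 and 3.89 CPM with rAAV-control, so that 1 rAAV-OVA mouse, BEC-B542, was above all others. By edgeR's quasi-likelihood test, in a model of the 8 groups and 2 surrogate variables (library-wide patterns estimated from the counts beyond the group terms), 0 of the 7 genes passed at 2 d. The limits were an adjusted p (Benjamini-Hochberg over 15648 genes) of at most 0.05 and an absolute log2 fold change (log2FC) of at least 0.66, and the lowest adjusted p of the 7 was 0.763. Of all genes 0 (0%) were increased at 2 d in edgeR, where 1428 had an unadjusted p under 0.05, and DESeq2 found 0 increased and 10 decreased. Of the 7, 0 had an unadjusted p under 0.05, and DESeq2 and limma voom also called 0. In 0 of the 7 was every rAAV-OVA mouse above every rAAV-control mouse, against 347 of all genes (2.22%).

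At 5 d all 7 genes were increased, and the vectors were clearly apart. Ciita was at 66.1, 40.5, 66.1 and 47.1 CPM in the rAAV-OVA mice and at 0.179, 1.68, 0.408 and 0.520 CPM in the rAAV-control mice. The lowest rAAV-OVA mouse was thus 24.1 times the highest rAAV-control mouse. The fitted log2FC of Ciita was 5.37 ± 0.70 (SE), with an adjusted p of 1.51e-05 in edgeR. Among the 7 it was the highest value at this day.

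The peptide-binding chains rose by similar amounts at 5 d. H2-Aa, the alpha chain of I-A, was at 543.8, 538, 624 and 503 CPM with rAAV-OVA and at 2.19, 20.3, 6.83 and 7.64 CPM with rAAV-control. Its log2FC was 4.93 ± 0.85 (edgeR adjusted p = 0.000192), and no mouse of one group lay within the range of the other. H2-Ab1, the beta chain of I-A, averaged 521 CPM in rAAV-OVA and 7.82 CPM in rAAV-control mice, a ratio of 66.5, with a log2FC of 5.04 ± 0.79. That fitted value is smaller than the ratio of means, and without the surrogate variables it was 6.05. For H2-Eb1, the beta chain of I-E, the means were 404 and 6.85 CPM and the log2FC was 4.87 ± 0.78. The alpha partner of H2-Eb1, H2-Ea, is silent in mice of the b haplotype and was not among the genes tested.

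Cd74, the invariant chain, encoded on chromosome 18, reached 1239, 1149, 1453 and 1197 CPM in rAAV-OVA mice at 5 d, against 5.59, 42.7, 14.9 and 13.9 CPM in rAAV-control mice. The groups did not overlap, and the log2FC was 5.08 ± 0.91 (edgeR adjusted p = 0.000265). The H2-DM chains rose less. H2-DMa was at 112, 96.0, 110 and 96.7 CPM with rAAV-OVA, but it was already at 14.9, 16.2, 15.03 and 14.2 CPM with rAAV-control, and its log2FC was 2.10 ± 0.29. H2-DMb1 was at 61.9, 46.8, 64.5 and 50.4 CPM and at 1.43, 3.36, 2.71 and 3.61 CPM, with a log2FC of 3.42 ± 0.50. H2-DMb1 has a close copy, H2-DMb2, and reads that fit both are divided between them by probability, so its own level is less certain.

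Of all genes, 1496 (9.56%) were increased at 5 d, beside 7 of the 7 class II genes. For 7 of the 7 every rAAV-OVA mouse was above every rAAV-control mouse, which held for 21% of all genes. The median log2FC of the 7 was 4.93, and that of all genes -0.01. Without the surrogate variables the log2FC of H2-Aa was 5.9 and that of Ciita 6.29, both still past the limits.

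At 8 d all 7 genes were again increased, with smaller fitted differences than at 5 d. Ciita was at 69.2, 30.6, 37.9 and 55.3 CPM in the rAAV-OVA mice and at 0.877, 12.2 and 1.19 CPM in the rAAV-control mice, the middle value being D720. H2-Aa was at 1179, 479.7, 563 and 819 CPM with rAAV-OVA and at 9.36, 344 and 22.6 CPM with rAAV-control, where 344 CPM is again D720. The groups did not overlap, although the lowest rAAV-OVA mouse was 1.40 times D720 in H2-Aa. The log2FC was 4.12 ± 0.69 for Ciita (edgeR adjusted p = 0.000412) and 3.33 ± 0.87 for H2-Aa (adjusted p = 0.0105).

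The remaining chains repeated this picture at 8 d. Cd74 was at 2637, 1189, 1343 and 1919 CPM in the rAAV-OVA mice, and at 23.3, 916 (D720) and 60.1 CPM in the rAAV-control mice, with a log2FC of 3.26 ± 0.93 (edgeR adjusted p = 0.0175). H2-Ab1 and H2-Eb1 had log2FCs of 3.41 ± 0.81 and 3.30 ± 0.80. H2-DMa and H2-DMb1 had log2FCs of 1.88 ± 0.30 and 2.64 ± 0.51. In H2-DMa the 4 rAAV-OVA mice ran from 67.4 to 140 CPM and D720 reached 53.8 CPM.

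The background at 8 d was 1464 increased genes (9.36%), and 14.4% of all genes had every rAAV-OVA mouse above every rAAV-control mouse, as 7 of the 7 class II genes had. With 1 mouse left out, between 3 and 7 of the 7 genes passed. Without D720 it was 7, and the log2FC of H2-Aa became 5.18 (adjusted p = 0.000841), that of Cd74 5.14 and that of Ciita 5.27. Without D722, another rAAV-control mouse, it was 3 (Ciita, H2-DMa and H2-DMb1), and the log2FC of H2-Aa was 2.46 (adjusted p = 0.107). Without surrogate variables Ciita, H2-DMa and H2-DMb1 also passed while H2-Aa, H2-Ab1, H2-Eb1 and Cd74 did not, and with the mice of 8 d alone 0 of the 7 and 0 of all genes passed. The first surrogate variable was lowest in D720, at -0.293.

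At 28 d the class II genes were still high in 3 of the 4 rAAV-OVA mice. H2-Aa was at 1734, 619 and 1248 CPM in D661, D667 and D845, but at 70.7 CPM in D844. The rAAV-control mice stood at 16.9, 7.70, 1.46 and 2.65 CPM, all below D844. The log2FC was 5.29 ± 0.89 (edgeR adjusted p = 0.000271). It was 6.99 without the surrogate variables, 5.92 without D844, and 6.92 without D720 and D844. The mean of the rAAV-OVA mice was 127.7 times that of the rAAV-control mice. Cd74 followed the same order, with 3909, 1350, 2897 and 171 CPM with rAAV-OVA and 48.6, 19.7, 3.04 and 5.401 CPM with rAAV-control. Its log2FC was 5.07 ± 0.93 (edgeR adjusted p = 0.000516), and 5.82 without D844.

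Ciita at 28 d was at 60.1, 22.5, 55.2 and 2.48 CPM in D661, D667, D845 and D844. In the rAAV-control mice it was at 1.00, 0.682, 0.0732 and 0.137 CPM, and the last pair of values rest on 2 and 3 counts. The log2FC was 4.49 ± 0.77 (edgeR adjusted p = 0.000311), and 5.21 without D844. H2-Ab1 and H2-Eb1 had log2FCs of 5.08 ± 0.82 and 5.19 ± 0.82, and H2-DMa and H2-DMb1 of 2.03 ± 0.30 and 3.15 ± 0.53. In H2-DMa, D844 was at 20.8 CPM and the highest rAAV-control mouse at 13.6 CPM.

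All 7 genes passed at 28 d, beside 1990 (12.7%) of all genes increased. For 7 of the 7 every rAAV-OVA mouse was above every rAAV-control mouse, as for 15% of all genes. The batches differed in the size of the gap. In batch 1 the rAAV-OVA mice were at 619 and 1734 CPM of H2-Aa against 1.46 and 2.65 CPM, and 7 of the 7 genes passed with this batch alone (log2FC of H2-Aa 9.18, edgeR adjusted p = 0.00132). In batch 2, which holds D844, they were at 70.7 and 1248 CPM against 7.70 and 16.9 CPM, and 0 of the 7 passed (log2FC of H2-Aa 5.73, edgeR adjusted p = 0.0871, 2 mice per group). Without D720 and D844 together, 7 of the 7 passed at 5 d, 8 d and 28 d.

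**Figure D2:**
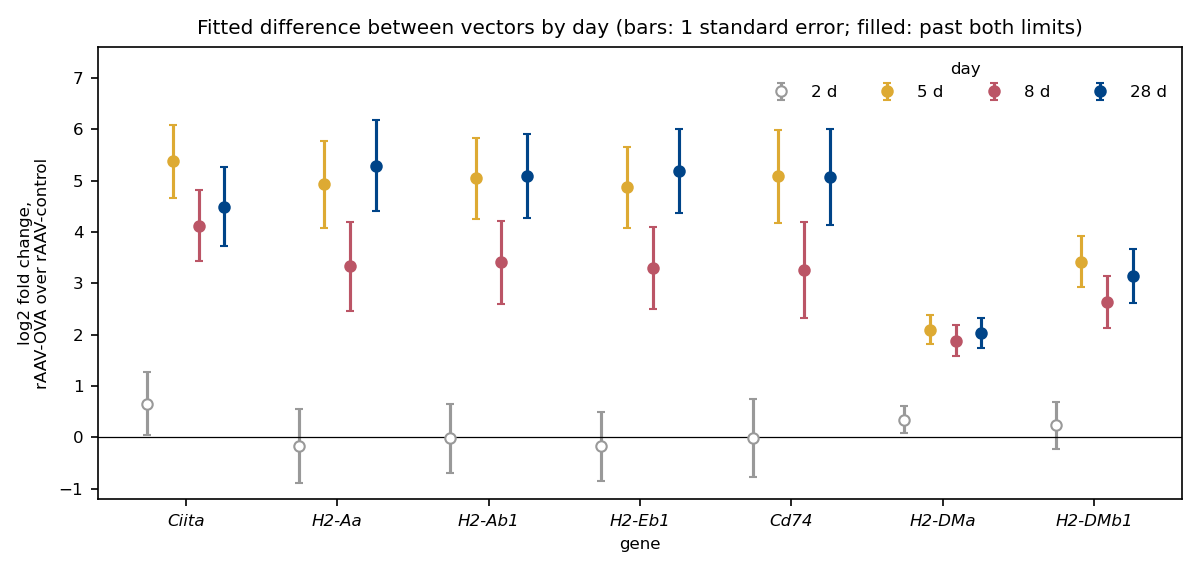
Fitted log2FC of rAAV-OVA over rAAV-control (vertical) for each class II gene (horizontal) at 2, 5, 8 and 28 d, with bars of 1 SE and filled points for genes past both limits. All points at 2 d are open, the highest being Ciita at 0.66, and H2-DMa has the lowest value of the 7 at 5, 8 and 28 d.

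Within the rAAV-OVA mice, the days were compared to see when the level changed. Between 2 d and 5 d all 7 genes rose, by 3.42 ± 0.83 (log2) for H2-Aa, 3.53 ± 0.88 for Cd74 and 2.66 ± 0.60 for Ciita, with edgeR adjusted p of 0.00844, 0.00954 and 0.00545. Over all genes 976 (6.24%) rose. From 5 d to 8 d, 0 of the 7 passed, against 336 of all genes (2.15%), and from 8 d to 28 d, 0 of the 7 passed, against 446 (2.85%). Of the 7, 0 had an unadjusted p under 0.05 in the first of these and 1 in the second, where the log2 difference of Ciita was -1.18 ± 0.54 (edgeR adjusted p = 0.196). DESeq2 and limma voom called 0 of the 7 in both.

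Neighbouring groups mostly overlapped in level. By median CPM, H2-Aa, H2-Ab1, H2-Eb1 and Cd74 were highest in rAAV-OVA mice at 28 d, then at 8 d, then at 5 d. The medians of Ciita, H2-DMa and H2-DMb1 were highest at 5 d, then at 8 d, then at 28 d. The fitted differences of 28 d against 8 d did not follow this split, being below 0 for all 7 genes, with -0.28 ± 0.71 for H2-Aa and -0.38 ± 0.76 for Cd74, and without D720 and D844 they were 0.43 ± 0.59 and 0.37 ± 0.67. The medians of H2-Aa were 934, 691 and 541.1 CPM at 28, 8 and 5 d, and those of Ciita 38.8, 46.6 and 56.6 CPM. These neighbours overlapped, and D844 set the lower end of the range at 28 d. In H2-Aa, H2-Ab1, H2-Eb1 and Cd74 a gap between neighbours was found once, where every rAAV-OVA mouse at 5 d was above every mouse of the next lower group. In Ciita, H2-DMa and H2-DMb1 no neighbours were without overlap.

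The rAAV-control mice were below the rAAV-OVA mice of the same day from 5 d on but not constant, and D720 at 8 d was above D844 at 28 d. H2-Aa had a median of 26.9 CPM at 2 d, 7.23 CPM at 5 d, 22.6 CPM at 8 d and 5.18 CPM at 28 d. Between 2 d and 28 d, 0 of the 7 genes passed in edgeR, against 463 of all genes (2.96%), and 2 had an unadjusted p under 0.05 (H2-Ab1, log2 difference -1.49 ± 0.71, and Ciita, -1.88 ± 0.77). H2-DMa showed a log2 difference of 0.00 ± 0.31 in this comparison. DESeq2 and limma voom called 0 of the 7, and without D720 and D844 edgeR called 3, namely H2-Ab1, H2-DMb1 and Ciita, all lower at 28 d.

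The difference in response between days was tested as an interaction, and no class II gene passed. From 5 d to 8 d the response of H2-Aa changed by -1.60 ± 1.16 (log2), from 5 d to 28 d by 0.36 ± 1.02 and from 8 d to 28 d by 1.96 ± 1.23, with edgeR adjusted p of 0.809, 0.848 and 0.442. Without D720 these changes were -0.06 ± 0.96, 0.62 ± 0.87 and 0.68 ± 1.00 for H2-Aa, and without D720 and D844 they were -0.19 ± 0.85, 1.22 ± 0.83 and 1.40 ± 0.93, and 0 of the 7 genes passed either way. Over all genes, 28 (0.179%), 967 (6.18%) and 0 (0%) passed in these comparisons, and in the last 2521 had an unadjusted p under 0.05 in edgeR. None of the 7 had an unadjusted p under 0.05 in the 3 comparisons, and DESeq2 and limma voom also called 0 of the 7 in each.

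Ratios between genes within a mouse were taken to compare partner chains. Each ratio was taken as log2 of (CPM + 0.5) over (CPM + 0.5), and the vectors were compared over 5, 8 and 28 d by a two-sided exact permutation test within days, with 171500 arrangements of 12 rAAV-OVA and 11 rAAV-control mice. H2-Ab1 over H2-Aa differed by -0.04 ± 0.06 (SE; exact p = 0.526, 0.637 after adjustment over 5 ratios). Cd74 over H2-Aa differed by 0.03 ± 0.06 (exact p = 0.637). In the 12 rAAV-OVA mice Cd74 over H2-Aa ran from 1.09 to 1.31 (log2), D844 included, so Cd74 and H2-Aa kept nearly the same proportion while H2-Aa itself ranged from 70.7 to 1734 CPM.

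The other 3 ratios differed between vectors. H2-Eb1 over H2-Aa was lower with rAAV-OVA by a small amount, -0.17 ± 0.06 (exact p = 0.00575, adjusted 0.0102), and was lower in the mean at each of the 3 days. H2-DMb1 over H2-DMa was higher with rAAV-OVA by 1.12 ± 0.17 (exact p = 5.83e-06, the smallest these arrangements allow, adjusted 2.92e-05). It ran from -1.58 to -0.76 in rAAV-OVA mice and from -2.99 to -1.15 in rAAV-control mice, the highest of which, from 5 d on, was D720. Cd74 over Ciita was higher with rAAV-OVA by 0.95 ± 0.28 (exact p = 0.0061, adjusted 0.0102), but with a pseudocount of 0.1 CPM the difference was 0.31 (adjusted p = 0.292). Its means with rAAV-OVA and rAAV-control were 4.53 and 3.845 at 5 d, 5.18 and 5.15 at 8 d, and 5.86 and 3.74 at 28 d. Leaving out 28 d, this ratio and H2-Eb1 over H2-Aa did not pass (adjusted p = 0.4 and 0.206). In batch 1 alone, Cd74 over Ciita differed by 1.25 (adjusted p = 0.0667) and the other 2 ratios passed.

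Among rAAV-OVA mice alone, where every gene is well above 0 from 5 d on, 2 ratios shifted with the day. Cd74 over Ciita was 4.53 ± 0.26 (SD, n = 4) at 5 d, 5.18 ± 0.08 at 8 d and 5.86 ± 0.13 at 28 d, which are ratios of 23.1, 36.4 and 58.1. The ranges of the 3 days did not overlap, from 4.22 to 4.81, from 5.11 to 5.26 and from 5.70 to 6.01, and D844 was within the last. H2-Ab1 over H2-Aa went from -0.09 ± 0.05 over -0.25 ± 0.05 to -0.50 ± 0.07, again without overlap between the days. These differences between days were seen after the values had been read and are given without a test. The rAAV-control means of Cd74 over Ciita given above also rose from 5 d to 8 d, but were lower again at 28 d.

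**Figure D3:**
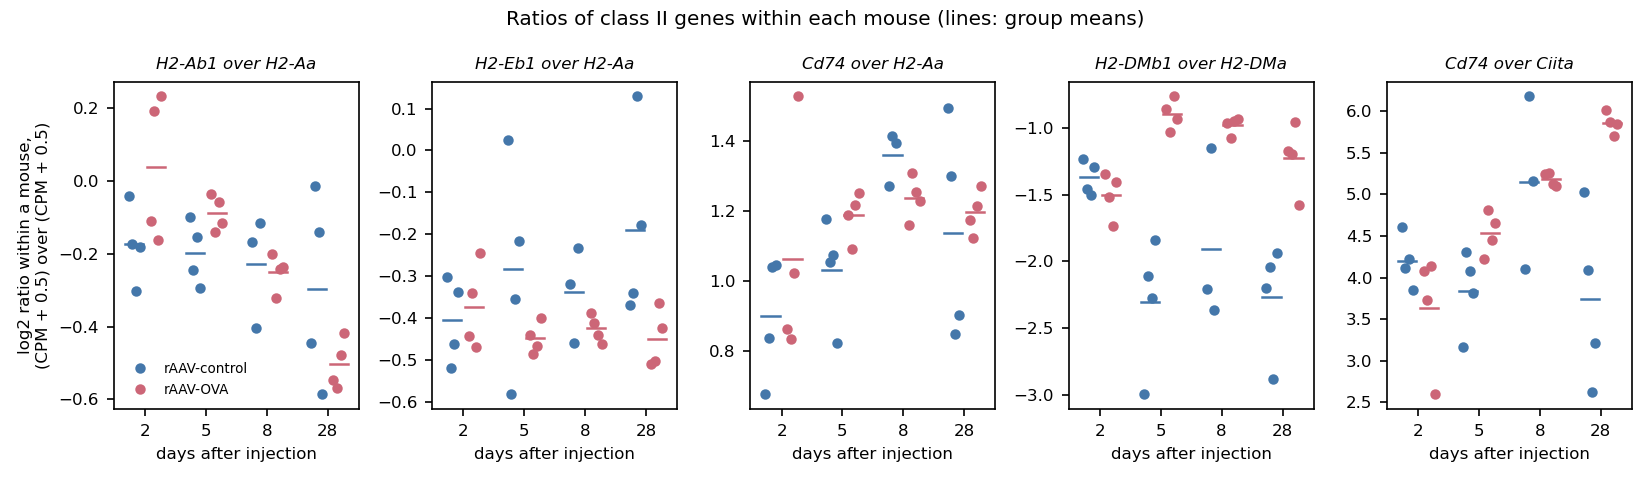
Log2 ratio of the CPM + 0.5 of 2 class II genes within each mouse (vertical) against days after injection (horizontal) for 5 ratios, rAAV-control in blue and rAAV-OVA in red, with group means as lines. In rAAV-OVA mice Cd74 over Ciita has means of 4.53, 5.18 and 5.86 at 5, 8 and 28 d, and H2-DMb1 over H2-DMa lies above the rAAV-control mean at each of these days.

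Levels of different genes can be compared per transcript length, for which CPM was divided by the kilobases of the principal transcript of GENCODE M21. In rAAV-OVA mice at 5 d the median was 864 CPM per kb for Cd74, 479.7 for H2-Aa, 421 for H2-Ab1 and 235 for H2-Eb1. The exchange chains were at 62.3 (H2-DMa) and 40.0 (H2-DMb1) CPM per kb, and Ciita, whose transcript is long, at 9.42 CPM per kb. The ranges of the 4 mice did not overlap between any of these genes in turn, except between H2-Aa (446 to 554) and H2-Ab1 (383 to 495). In the rAAV-control mice at 5 d the order was different, with Cd74 at a median of 10.2, H2-DMa at 9.03, H2-Aa at 6.41 and Ciita at 0.0773 CPM per kb, and the ranges of Cd74 and H2-DMa overlapped.

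The likeness of profiles over the 31 mice was measured against the mean of the 7 genes, which each of them is part of. On log2 CPM standardised over the mice (prior count 2), H2-Eb1 lay closest to the mean profile of the 7, with a root mean square difference of 0.0835, and H2-DMa farthest, at 0.235, which was rank 50 of all genes. Ciita was at rank 9, behind 3 genes outside the 7. The median over all genes was 1.45. Outside the 7, the nearest genes were the class Ib genes H2-Q7 (0.153) and H2-Q6 (0.171), Klrk1 (0.169), which encodes the activating receptor NKG2D, the class I heavy chain H2-K1 (0.176) and its light chain B2m (0.183). H2-Q6 and H2-Q7 are near-identical copies, so their separate levels are uncertain. Both vectors enter this measure, so a gene increased with rAAV-OVA in a similar pattern can come out near through that difference alone.

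Other genes of the pathway were taken from lists compiled by hand with earlier results of these data known, and their counts stand beside 9.56%, 9.36% and 12.7% of all genes increased at 5, 8 and 28 d. The other class II chains rose with the 7: of 5 listed, 3 were tested, and 3 of 3 were increased at 5, 8 and 28 d, 0 at 2 d. H2-DMb2, the close copy of H2-DMb1, had log2FCs of 3.04 ± 0.51, 3.44 ± 0.53 and 5.35 ± 0.58 at 5, 8 and 28 d. H2-Oa and H2-Ob encode the H2-O pair, which restrains H2-DM. At 28 d H2-Oa had a log2FC of 3.99 ± 0.63 and H2-Ob, whose promoter is shown above, of 3.22 ± 0.59, with edgeR adjusted p of 0.000193 and 0.000499. The response of H2-DMb2 was larger at 28 d than at 5 d by 2.31 ± 0.73 (edgeR adjusted p = 0.0467), a difference that 0 of the 7 chosen genes showed.

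Of 12 factors that act on class II promoters, all tested, 0 were increased at 5 d, 2 at 8 d and 1 at 28 d, with median log2FCs of 0.17, 0.17 and 0.10. The shares over all genes were 9.56%, 9.36% and 12.7%, so these counts are near the background. At 5 d 3 of the 12 had an unadjusted p under 0.05, and DESeq2 and limma voom called 0, while edgeR without surrogate variables called 2. Rfx5, the RFX subunit that contacts the X box, had log2FCs of 0.08 ± 0.12, 0.49 ± 0.13 and 0.28 ± 0.12 and did not pass. Nfya, a subunit of NF-Y, which binds the Y box letters, passed at 8 d (0.82 ± 0.17, edgeR adjusted p = 0.0022) and at 28 d (0.68 ± 0.17, adjusted p = 0.00393), and Atf1, a CREB family member, at 8 d (0.84 ± 0.17, adjusted p = 0.00169).

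Genes that process the invariant chain and antigen rose in part. Of 9 tested, 6 were increased at 5 d, 4 at 8 d and 7 at 28 d, with median log2FCs of 1.09, 0.85 and 1.46. Ctss, the cathepsin that makes the last cut in the invariant chain in professional antigen-presenting cells, had a log2FC of 2.29 ± 0.44 at 28 d (edgeR adjusted p = 0.000663) and of 1.81 ± 0.43 at 5 d. Ifi30, a thiol reductase of the endosome, had 2.98 ± 0.59 at 5 d and 3.05 ± 0.63 at 28 d. Ctsc, a protease that activates others, had 3.01 ± 0.40 at 5 d and 1.97 ± 0.40 at 28 d, and Ctsz 1.33 ± 0.38 and 1.82 ± 0.39.

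Turnover of class II at the surface, by the ligases MARCHF1 and MARCHF8 and by CD83, which opposes MARCHF1, was covered by 3 tested genes. Of these 0 passed at 5 d and at 8 d and 1 at 28 d, which was Cd83 (log2FC 0.96 ± 0.21, edgeR adjusted p = 0.00153), beside 9.56%, 9.36% and 12.7% of all genes. At an unadjusted p under 0.05 there was 1 at 5 d and 1 at 8 d, and DESeq2 and limma voom called 0 on both days. CD74 is also the surface receptor of the cytokine MIF, which signals with CD44 and CXCR4. Of the 5 genes of that list 2 were increased at each of 5, 8 and 28 d, and they were Cd44 (log2FC 3.07 ± 0.55, 1.98 ± 0.55 and 2.55 ± 0.56) and Cxcr4 (1.32 ± 0.41, 2.02 ± 0.44 and 2.28 ± 0.43). Mif itself had log2FCs of 0.10 ± 0.12, 0.13 ± 0.12 and 0.20 ± 0.12 and did not pass.

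The T cell receptors for class II, Cd4 and Lag3, were listed with costimulatory and checkpoint genes of the presenting cell. Cd4 was not among the genes tested. Of 6 tested genes of this list, 4 were increased at 5 d, 6 at 8 d and 6 at 28 d, with median log2FCs of 1.98, 2.00 and 2.18. Lag3, an inhibitory receptor, had log2FCs of 0.63 ± 0.42 (which did not pass), 1.39 ± 0.43 and 2.69 ± 0.44, and its response at 28 d was larger than at 5 d by 2.06 ± 0.54 (edgeR adjusted p = 0.0198). The costimulatory genes Cd40 and Cd86 were at 3.49 ± 0.56 and 2.18 ± 0.35 at 5 d and at 2.36 ± 0.60 and 2.25 ± 0.37 at 28 d, and Cd274, the ligand PD-L1, was at 3.91 ± 0.63 and 2.10 ± 0.62.

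Interferon-gamma is the classical inducer of Ciita, and its own gene, Ifng, was not among the genes tested. Of 8 tested genes of its axis, 4 were increased at 5 d, 6 at 8 d and 5 at 28 d, against 9.56%, 9.36% and 12.7% of all genes, with median log2FCs of 0.81, 1.07 and 1.19. Irf1, a target that itself acts on Ciita, had log2FCs of 3.59 ± 0.52, 2.72 ± 0.54 and 2.16 ± 0.53, and Socs1, a brake on the signal, 3.51 ± 0.47, 2.67 ± 0.48 and 1.79 ± 0.50. The receptor gene Ifngr1 had 0.52 ± 0.29 at 5 d, which did not pass, and 1.65 ± 0.30 at 28 d (edgeR adjusted p = 0.000421).

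Class I presentation, the arm that OT-I cells read, was increased in 7 of 7 tested genes at 5, 8 and 28 d, with median log2FCs of 2.84, 2.15 and 2.88. Nlrc5, which plays for class I the part of Ciita, had log2FCs of 4.53 ± 0.68, 3.37 ± 0.67 and 3.003 ± 0.69. H2-K1 had 3.38 ± 0.62, 2.36 ± 0.64 and 3.23 ± 0.62. In D720 and D844 these genes stood apart in the same direction as class II: H2-K1 was at 646.5 CPM in D720 and 127 CPM in D844, and Nlrc5 at 26.04 and 4.83 CPM. At 8 d without surrogate variables 1 of the 7 class I genes passed. The share of all genes increased in that fit is not given here.

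**Figure D4:**
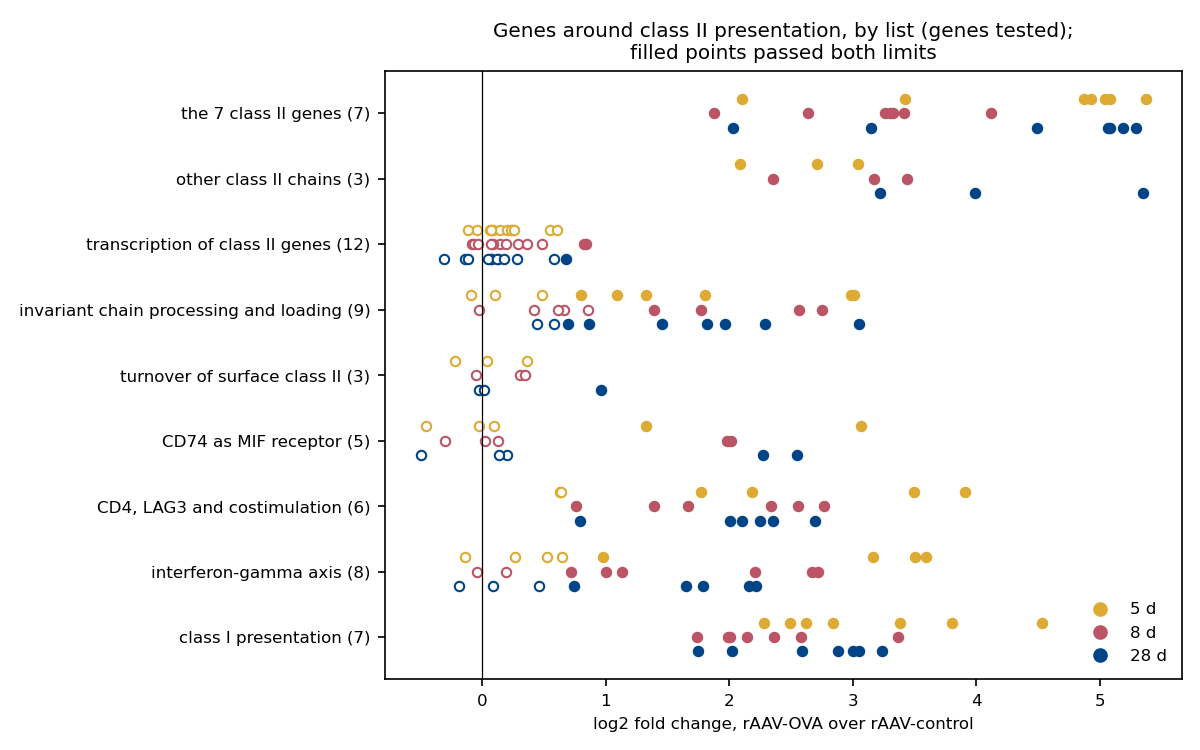
Log2FC of rAAV-OVA over rAAV-control (horizontal) for each tested gene of the lists around class II presentation (vertical, number of genes in brackets) at 5, 8 and 28 d, filled where a gene passed both limits. The 3 other class II chains and the 7 class I genes are filled at each day, and of the 12 factors that act on class II promoters 0, 2 and 1 are filled at 5, 8 and 28 d.

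Markers of cell types that can carry class II are given as summed CPM and as counts, beside the 9.56%, 9.36% and 12.7% of all genes increased at 5, 8 and 28 d. Of the 15648 genes, 730, 92 and 760 were decreased at these days. The 7 monocyte markers summed to between 16.9 and 27.1 CPM in rAAV-control and between 225 and 373 CPM in rAAV-OVA mice at 5 d, to between 21.3 and 76.4 and between 108.5 and 340.5 CPM at 8 d, and to between 20.2 and 30.1 and between 35.1 and 159.5 CPM at 28 d. Of these, 6 were increased at 5 d, 6 at 8 d and 5 at 28 d. The log2FC of Ccr2 was 4.25 ± 0.65 at 5 d and 4.79 ± 0.79 at 28 d, that of Plac8 5.53 ± 0.68 and 4.61 ± 0.96, that of Ly6c2 6.04 ± 0.75 and 3.44 ± 0.94, and that of Chil3 4.71 ± 0.58 and 1.95 ± 0.79, the last of which did not pass. From 8 d to 28 d in rAAV-OVA mice, Plac8, Ly6c2 and Chil3 decreased (log2 differences -2.51 ± 0.55, -3.11 ± 0.60 and -3.75 ± 0.50, edgeR adjusted p of 0.0162, 0.0103 and 0.00145), and the other 4 did not pass. For the 8 tested microglia markers the ranges were 409 to 604 and 763 to 808 CPM at 5 d, 329 to 937 and 737 to 972 CPM at 8 d, where they overlapped, and 308 to 357 and 427 to 1171 CPM at 28 d. Of the microglia markers 2 were increased and 1 decreased at 5 d (Gpr34, log2FC -1.24 ± 0.25), and 5 were increased at 28 d, Cx3cr1 by 1.30 ± 0.26. At 8 d 0 of the 8 passed in edgeR, DESeq2 or limma voom (3 at an unadjusted p under 0.05 in edgeR), and without D720 and D844 edgeR called 6. The 9.36% belongs to the fit with both mice, and the share without them is not given here.

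Of the 8 dendritic cell markers 5 were tested, without Xcr1, Clec9a and Cd209a. Their sum was 12.3 to 15.1 CPM in rAAV-control and 55.8 to 74.0 CPM in rAAV-OVA mice at 5 d, and 13.7 to 14.3 and 21.2 to 208 CPM at 28 d. At 5, 8 and 28 d 3 were increased, namely Itgax, Batf3 and Ccr7, while Flt3 and Zbtb46 did not pass. Of the 6 tested border macrophage markers 1, 1 and 2 were increased at 5, 8 and 28 d. With so few genes these counts cannot be told apart from the 9.56%, 9.36% and 12.7% of all genes. They were Clec4n at each day and Mrc1 at 28 d (log2FC 1.52 ± 0.44), after -0.56 and -0.76 at 5 and 8 d. Lyve1 was at -0.91, -1.09 and -1.235 at 5, 8 and 28 d, and Pf4 at -1.205, -0.87 and 0.66. F13a1 was at 1.34, 1.155 and 1.01, and Cd163 between -0.08 and 0.10. None of these passed. The sum of the 6 markers was at most 52.6 CPM in any mouse. Of the 7 B cell markers 5, among them Ms4a1, Cd79a and Pax5, were not among the genes tested. Of the 2 tested, 0 passed at 5 d in edgeR (1 at an unadjusted p under 0.05, 0 in DESeq2 and limma voom). Ighm was increased at 8 d (log2FC 1.50 ± 0.39) and 28 d (1.78 ± 0.39), and Cd79b at 28 d (2.80 ± 0.65). Their sum was 11.1 to 22.9 CPM in rAAV-control and 40.02 to 42.8 CPM in rAAV-OVA mice at 5 d, and 7.46 to 10.8 and 11.3 to 90.6 CPM at 28 d. These mice lack Rag1, so mature B cells do not form. Which cells hold the Ighm and Cd79b transcripts was not tested.

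The 3 tested T cell markers, Cd8a, Trbc2 and Lck, summed to between 1.88 and 5.01 CPM in rAAV-control and between 115 and 176 CPM in rAAV-OVA mice at 5 d, and all were increased at 5, 8 and 28 d. Of the 5 endothelial markers 0 passed at 5 and 8 d in edgeR, DESeq2 or limma voom (0 at an unadjusted p under 0.05), and 3 were increased at 28 d, Cldn5 by 1.15 ± 0.28. Of the 6 astrocyte markers 1 was decreased at 5 d (Gja1) and 1 increased at 28 d (Gfap, 1.09 ± 0.42), and of the 7 neuron markers 3 were decreased at 28 d, Snap25 by -0.89 ± 0.16. Beside these decreases stand 730 of all 15648 genes decreased at 5 d and 760 at 28 d. In D720 the microglia sum was 937 CPM, above both other rAAV-control mice at 8 d, and the T cell sum 39.6 CPM. In D844 the T cell sum was 35.8 CPM and the monocyte sum 35.1 CPM, the lowest of the rAAV-OVA mice at 28 d. D844 also stood apart in neuron markers, with the lowest Slc17a7 (excitatory neurons) and the highest Gad1 (inhibitory neurons) of its group, at 212.6 and 692 CPM, against 1167 to 1441 and 305 to 357 CPM in the rAAV-control mice at 28 d. The part of these cells in the class II levels was not tested.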

How the data were processed

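Hippocampal bulk RNA-seq of 31 mice was analysed. The authors trimmed reads with fastp, quantified them against GENCODE M29 with Salmon 1.8.0 (submitters' processing notes), summed them to genes with tximeta, kept genes that reached 15 counts in 15 or more mice, and deposited expected counts as whole numbers without normalization. A second deposited table held the same counts, with 0 cells differing and 4 symbols written differently, and was not used. Totals ran from 19046977 to 57407902, so counting error is small beside the spread between mice for all but the lowest Ciita values. Mice were grouped by the labelled treatment and time point, and a p-value measures the spread between mice.

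All genes were fitted with edgeR 4.0.16 in R 4.3.3 (TMM, robust quasi-likelihood F-test, 8 groups and 2 surrogate variables from sva 3.50.0). Calls needed a Benjamini-Hochberg adjusted p of at most 0.05 over 15648 genes and an absolute log2FC of at least 0.66. The SE is the log2FC divided by the root of F. Ratios used an exact permutation test (numpy). Alternatives were DESeq2 1.42.0, ashr 2.2.63, limma 3.58.1 voom, RLE factors, other covariates, filters and limits, single batches or days, and each mouse left out. Leaving out D720 and D844 together was added after the data had been seen. The steps were tested on simulated data.

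The members and lists were chosen with earlier results of these data known. Named genes were the 7 members, per list at most 4 genes called at any day with the largest absolute log2FC at 28 d, also Rfx5, Ctss, H2-DMb2, H2-Oa, H2-Ob, Nlrc5, Ifng and Irf1, and the 5 genes of nearest profile. Some listed genes are not reported here by name. Gpr34, P2ry12, Ly6c2, Chil3, Aldoc, Gad1, Mif, Flt3, Zbtb46, Lyve1, Pf4, F13a1 and Cd163 were named outside that rule after their values were seen. Coordinates and lengths are from GENCODE M21 (GRCm38) and promoters from RefSeq (GRCm38.p6), while the counts rest on another annotation release.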

Additional observations from a re-analysis of the deposited data

Results flagged for a closer look

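In 84 groups of 4 mice looked at (7 genes and 5 ratios in 7 groups), 1 mouse lay apart from the other 3 by the Dixon gap criterion, where chance alone would give about 1 in 20. Ciita was at 12.6 CPM in rAAV-OVA mouse BEC-B542 at 2 d, while the other 3 mice of that group were at 1.40 to 2.998 CPM. The gap made up 0.857 of the range of the group. The same mouse was also above every rAAV-control mouse at 2 d in Cd74 (79.0 against at most 62.8 CPM), H2-Ab1 (31.9 against 26.6), H2-DMa (27.5 against 16.9) and H2-DMb1 (10.1 against 6.63), while its H2-Aa (27.1 CPM) and H2-Eb1 (22.8 CPM) were within the rAAV-control range.

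Among the genes of the lists, the log2FC at 28 d was higher than at 5 d by an interaction in edgeR for H2-DMb2, by 2.31 (adjusted p = 0.0467), and for Lag3, by 2.06 (adjusted p = 0.0198), with 4 mice per group. The same held for the microglia markers Gpr34 (1.86, adjusted p = 0.00128), Cx3cr1 (1.16, adjusted p = 0.0298) and P2ry12 (0.974, adjusted p = 0.0192). It also held for Mrc1 of the border macrophage list (2.07, adjusted p = 0.0231), whose other tested genes did not pass. Cd79b of the B cell list passed too (2.44, adjusted p = 0.0472), in mice that form no mature B cells. So did Cldn5 of endothelium (1.52, adjusted p = 0.0121), and Gja1 and Aldoc of astrocytes (1.32 and 0.729, adjusted p = 0.00053 and 0.0261). Of these, Gpr34, P2ry12, Gja1 and Aldoc were below 0 at 5 d (log2FC -1.24, -0.65, -0.91 and -0.60). At 28 d they did not pass as increased (0.61, 0.32, 0.42 and 0.12). Over all genes, 604 had a larger and 363 a smaller log2FC at 28 d, and in batch 1 alone 14 and 26.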

How the results depend on the processing

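All 7 class II genes passed at 5 d in every alternative that tested them, and at 28 d in all but batch 2 alone, where 0 passed. Ciita was not tested where 15 counts were needed in every mouse. At 8 d 3 passed without surrogate variables, 3 with the batch label in their place, 5 in batch 1 alone (not H2-Aa, adjusted p = 0.0543 in edgeR, nor Cd74, 0.0725) and 0 with the mice of 8 d alone, and 3 to 7 with 1 mouse left out. Between 2 d and 28 d in rAAV-control mice, 3 passed without D720 and D844. At 2 d no gene passed, and log2FCs near 0 changed sign: H2-Ab1 and Cd74 were 0.0735 and 0.0277 without surrogate variables, 0.0866 and 0.052 with the batch label, 0.0736 and 0.0276 with the mice of 2 d alone, and 0.0513 and 0.108 without D720 and D844. H2-Aa, H2-Ab1, H2-Eb1 and Cd74 were 0.0388, 0.228, 0.0389 and 0.181 with 15 counts in every mouse, and 0.0694, 0.193, 0.0907 and 0.15 in batch 1 alone. With 1 mouse left out the 2 d values ran from -0.707 to 0.106 (H2-Aa), -0.487 to 0.248 (H2-Ab1), -0.68 to 0.0927 (H2-Eb1), -0.127 to 0.495 (H2-DMb1), -0.5 to 0.257 (Cd74) and -0.0996 to 0.854 (Ciita). Of the 5 ratios 3 passed, and 1 passed with 28 d left out, where H2-Ab1 over H2-Aa was 0.045. Cd74 over H2-Aa was -0.019 with a pseudocount of 0.1 CPM and ran from -0.001 to 0.071 with 1 mouse left out. Over all genes, 1464 were increased at 8 d, but 789 with 15 counts in every mouse and 0 with the mice of 8 d alone. At 28 d 1990 were increased and 760 decreased, but 57 and 345 in batch 2 alone. The cause of these changes was not tested. Where a setting is given without its share of all genes, the shares above belong to the main fit. Whether a change in calls there is particular to the named genes was not tested. No paired analysis was possible because no label ties a mouse of one group to a mouse of another.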
